A study of Homo sapiens with 12 samples.

Results

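The genes described here are 32 genes of sterol and fatty acid synthesis, chosen by name and read from the deposited table after its transcripts were summed per gene. All 32 were among the 16789 genes that passed the filter on low values. They form a sterol arm of 18 genes, a fatty acid arm of 9 genes and a set of 5 regulators, which includes 1 sterol carrier. HK-2 cells, an immortalized human line labelled as proximal tubule epithelium, were cultured for 72 h with 2,8-dihydroxyadenine (DHA) at 60, 120 or 240 ug/ml, or in plain medium as control. DHA is a poorly soluble purine that was given as a suspension. No carrier of the suspension is named in the sources used here, so a difference from control includes any effect of one. Each of the 4 groups held 3 libraries of poly(A)-selected RNA. Whether they came from separate cultures is not stated, so a p-value here reflects library-to-library spread that could be purely technical.

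Cholesterol is built from acetyl-CoA through mevalonate, the isoprenoids, squalene and lanosterol. Fatty acids are built from the same acetyl-CoA through malonyl-CoA, and are then elongated and desaturated. Genes of both arms carry promoter sites for the sterol regulatory element binding proteins, made from SREBF2 and SREBF1. SREBF2 is known mainly for the sterol arm, and SREBF1 for the fatty acid arm and as a target of the oxysterol receptors (LXR). SCAP escorts these proteins out of the endoplasmic reticulum when sterol is scarce, and INSIG1 holds them back. In kidney tubule cells both arms supply membrane lipid.

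Promoter sequence is shown for MSMO1 and DHCR7 of the sterol arm, ACLY of the fatty acid arm and SREBF1, to show how CCAAT boxes lie in genes that share a class of regulators. MSMO1 itself was called at no dose. The windows are the part of the 250 bases before the gene start, on GRCh38.p14 and from RefSeq, that holds no annotated exon. Capitals mark CCAAT boxes, read as CCAAT or, on the other strand, ATTGG. MSMO1, the sterol C4 methyl oxidase, has 3 of its 4 boxes inside the stretch shown (chr4:165327419-165327622, plus strand). DHCR7, the last reductase of cholesterol synthesis, has 2 boxes (chr11:71448436-71448643, minus strand). ACLY, which makes cytosolic acetyl-CoA from citrate, also has 2 (chr17:41919023-41919272, minus strand), and the SREBF1 window has 0 (chr17:17837003-17837236, minus strand).
MSMO1: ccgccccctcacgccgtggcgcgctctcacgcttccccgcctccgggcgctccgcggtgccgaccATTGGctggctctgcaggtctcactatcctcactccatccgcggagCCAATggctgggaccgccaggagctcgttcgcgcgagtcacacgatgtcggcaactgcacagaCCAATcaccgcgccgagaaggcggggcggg
DHCR7: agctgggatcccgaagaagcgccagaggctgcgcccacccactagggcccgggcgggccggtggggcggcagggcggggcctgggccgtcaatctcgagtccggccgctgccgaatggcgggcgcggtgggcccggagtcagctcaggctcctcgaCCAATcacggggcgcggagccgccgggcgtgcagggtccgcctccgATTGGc
ACLY: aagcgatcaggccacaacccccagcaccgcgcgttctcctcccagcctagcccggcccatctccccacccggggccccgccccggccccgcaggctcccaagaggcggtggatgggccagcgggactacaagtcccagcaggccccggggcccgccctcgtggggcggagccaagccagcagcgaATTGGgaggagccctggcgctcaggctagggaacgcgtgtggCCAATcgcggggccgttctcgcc
SREBF1: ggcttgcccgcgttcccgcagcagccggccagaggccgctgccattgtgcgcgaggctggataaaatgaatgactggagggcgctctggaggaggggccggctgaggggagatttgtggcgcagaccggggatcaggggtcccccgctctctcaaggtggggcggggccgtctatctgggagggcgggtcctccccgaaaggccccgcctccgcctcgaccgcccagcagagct

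The promoter table held 28 of the 32 genes. FASN, FDFT1, SQLE and ACAT2 have no entry there. A CCAAT box on either strand stood in the 250 bases before the start of 21 of the 28 genes (75.0%), against 40.2% of 15843 protein-coding genes with a window. It was present in 13 of 15 sterol genes and in 5 of 8 fatty acid genes. At least 2 boxes were present in 14 of the 28 (50%), against 13.7% of all. The sterol regulatory element searched, TCACNCCAC on either strand, was found in 1 of the 28, SREBF2 itself, as TCACCCCAC from 133 to 125 bases before its start. Motifs were counted in the full 250 bases, annotated exons included, and all of the SREBF2 window lies in annotated exons, so it is not printed. The sterol regulatory element was found in 1.19% of all genes with a window. For each motif, a gene counted if any of its windows matched. The E-box CACGTG was found in 4 of the 28 (14.29%) and in 9.73% of all. None of the motif shares was tested, and a match is a match of letters only.

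Across the series, library totals of the deposited signal ran from 791808 to 1228979 and were lower in every DHA library than in every control library. Setting all totals equal moved the all-gene median log2 fold change from -0.03 to 0.14, 0.27 and 0.34 at 60, 120 and 240 ug/ml. All values below keep the deposited scaling unless stated, so a direction is relative to it. All 5 epithelial markers passed the filter, and 3 of them were called lower at 120 and 240 ug/ml, KRT8, EPCAM and CDH1, by 1.05, 0.55 and 1.19 (log2) at 240 ug/ml, where CDH1 was under 1. KRT18 and KRT19 went the other way. KRT18 was called higher at 60 ug/ml and KRT19 at 120 ug/ml, each by 0.33 (log2). At 240 ug/ml they were 0.09 and 0.24 above control, not called. The epithelial list summed to between 691 and 734.5 in control and between 631 and 721.7 at 240 ug/ml. Of 7 proximal tubule markers, LRP2 and SLC22A6 were at 0 in all libraries, CUBN, AQP1, SLC34A1 and ANPEP stayed under 1, and GGT1 carried the list and fell by 0.82 (log2) at 240 ug/ml. That list summed to between 156 and 192.1 in control and between 87.7 and 119.7 at 240 ug/ml. The endothelial, adipocyte and hepatocyte lists summed to under 1 in each library, PTPRC and CD3E were at 0, and CD68 made up nearly all of the leukocyte list. Of 5 fibroblast markers, 3 passed the filter and COL1A2 was at 0. The summed fibroblast list fell with dose, from between 246.7 and 340.5 in control to between 38.7 and 65.6 at 240 ug/ml, with LUM at the top. The part of these marker changes in the results below was not tested. In bulk RNA, fewer cells of a type and less RNA per cell cannot be told apart.

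The arms moved apart at every dose, under either scaling relative to the median of all genes. In the sterol arm, 0 genes were called higher and 2, 8 and 7 lower than control at 60, 120 and 240 ug/ml, and in the fatty acid arm 1, 3 and 3 were called higher and 1, 2 and 1 lower. A gene was called at a limma adjusted p below 0.05 over all genes tested. Of all genes, 8.89%, 15.9% and 19.7% were called higher and 10.0%, 20.8% and 23.5% lower at the 3 doses. The sterol shares called lower at 120 and 240 ug/ml, 8 and 7 of 18, thus stood above the background on the deposited scaling, and the share called higher stood below it. With equal library totals 1 of 18, TM7SF2, was called lower at each of these doses, below the 8.13% and 9.02% of all genes. The median log2 fold change of the sterol arm was -0.24, -0.33 and -0.25 at the 3 doses (-0.04, 0.01 and 0.16 with equal library totals), that of the fatty acid arm 0.10, 0.18 and 0.20, and that of all genes -0.03 at each. Every library of the dose lay below every control library for 6, 13 and 7 of the 18 sterol genes, against 20.3%, 27.3% and 28.7% of all genes. It lay above for 2, 5 and 5 of the 9 fatty acid genes, against 16.2%, 21.7% and 24.2% of all. For 2, 3 and 2 of the same 9 it lay below, near the 20.3%, 27.3% and 28.7% of all genes. No test of the arms themselves was made, because the genes were chosen with results known. On the F statistic over all doses, 7 sterol genes, 4 fatty acid genes and 2 regulators were called, 13 of 32, against 42.7% of all genes.

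**Figure D1:**
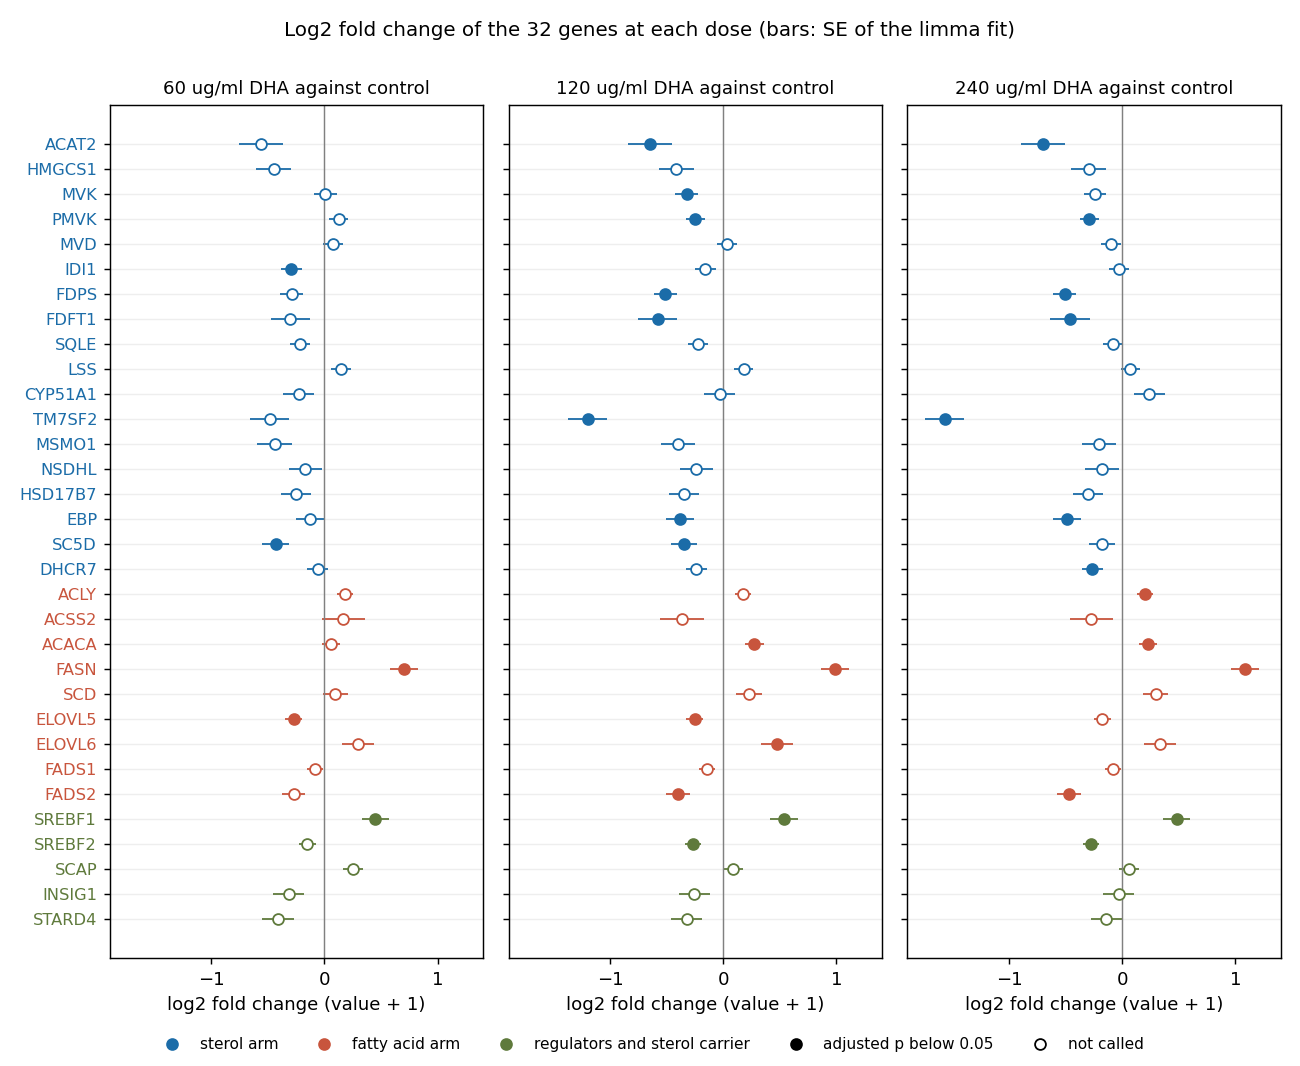
The log2 fold change of each of the 32 genes against control (horizontal axis, log2 of value + 1), in 1 panel per dose, coloured by arm; filled points passed the adjusted p of 0.05 and bars are the SE of the limma fit. Sterol genes lie mostly left of 0, with TM7SF2 farthest at -1.57, and FASN lies farthest right at 1.08.

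These counts moved with single libraries. At 60 ug/ml, 3 members were called lower in all. That count was 0 without control library 2, control library 3 or 60 ug/ml library 1, 1 without control library 1 or 60 ug/ml library 2, and 6 without 60 ug/ml library 3. The 2 called higher there became 1 without control library 2 or 3 or 60 ug/ml library 1 or 2, and 3 without 60 ug/ml library 3. At 120 ug/ml the 11 called lower became 5 without 120 ug/ml library 1 and 6 without 120 ug/ml library 2, control library 2 or control library 3, and the 4 called higher became 2 without 120 ug/ml library 1 or control library 2 or 3. At 240 ug/ml the count called lower stayed between 7 and 8 against 9 in the full fit. The 4 called higher became 2 without control library 1 or 2 or 240 ug/ml library 1 or 3. Under all 17 alternative settings, FASN stayed called at all 3 doses, TM7SF2 at 120 and 240 ug/ml, and SREBF1 at 120 ug/ml.

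Summed over its 18 genes, the sterol arm's signal was 1013 ± 75.1 in control (SD, n = 3 in each group), 870.2 ± 59.4 at 60, 789.1 ± 72.4 at 120 and 801 ± 70.0 at 240 ug/ml. The fatty acid arm's sum was 695 ± 9.25, 729 ± 43.8, 743 ± 18.7 and 771 ± 22.6 in the same order. The ratio of the fatty acid sum to the sterol sum, which the scaling of a library does not change, was 0.726, 0.694 and 0.644 in the control libraries. It was 0.863, 0.828 and 0.824 at 60, 0.993, 0.974 and 0.870 at 120, and 0.936, 1.04 and 0.922 at 240 ug/ml. Every DHA library was therefore above every control library. Such sums give most weight to genes with a high signal, FDPS and EBP in the sterol arm and ACLY, ELOVL5 and SCD in the fatty acid arm. As a mean over genes of log2(value + 1) minus each gene's control mean, the fatty acid arm exceeded the sterol arm by 0.32 ± 0.08 at 60, 0.45 ± 0.11 at 120 and 0.44 ± 0.08 at 240 ug/ml. Control libraries ran from -0.07 to 0.07 on that scale. The fatty acid arm's own mean was 0.10, 0.11 and 0.13 at the 3 doses, with FASN at 0.71, 0.99 and 1.08 among its 9 genes. The log2 fold changes of 3, 4 and 4 of these 9 genes were below 0. The mean without FASN was not computed, so an arm mean above 0 does not show that the other genes of the arm rose.

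**Figure D2:**
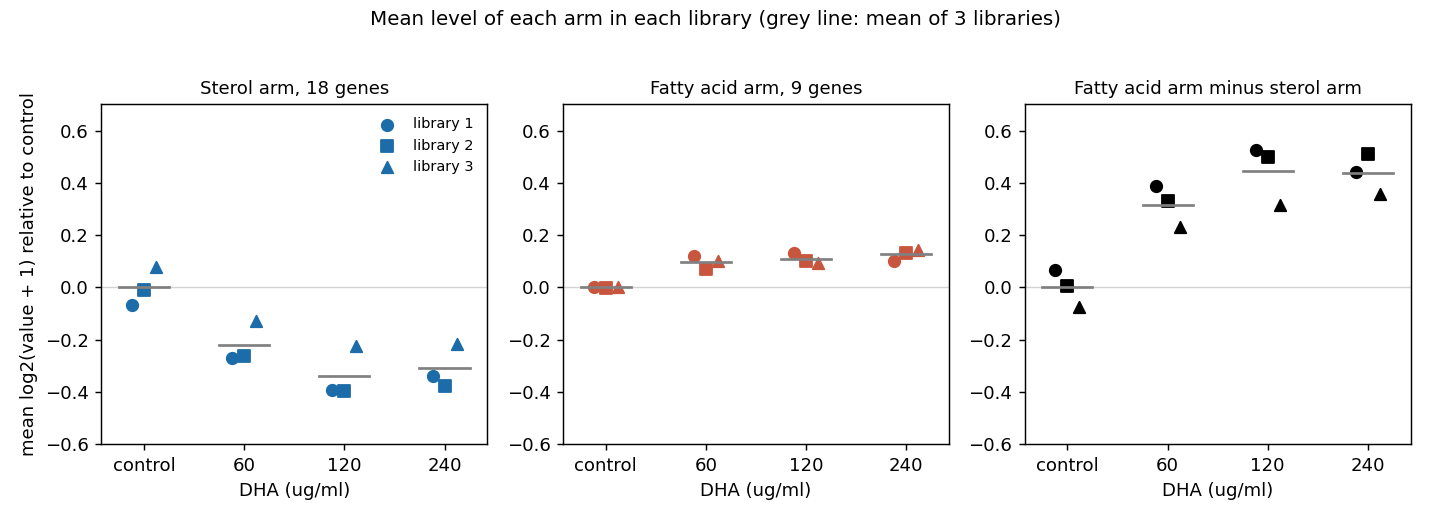
The mean log2(value + 1) of the sterol arm, of the fatty acid arm and their difference in each of the 12 libraries, relative to the control mean of each gene (vertical axis, log2 units), by group; each point is 1 library and the line is the group mean. The sterol arm is below 0 and the fatty acid arm above 0 in all 9 DHA libraries on the deposited scaling, and with equal library totals the sterol median at 240 ug/ml turns to 0.16. FASN has the largest change of the genes averaged in the fatty acid arm, and the mean without it was not computed. A fatty acid mean above 0 therefore does not show that the other genes rose.

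Transcript length differed between the arms and moved with this result. The main transcript, the one with the largest share of a gene's signal, had a median length of 2263.5 bases in the sterol arm and 4339 in the fatty acid arm. The difference between the medians of the arms (fatty acid minus sterol, log2) was 0.34, 0.51 and 0.45 at the 3 doses. With the trend of fold change on length subtracted, it was 0.35 at 120 and 0.15 at 240 ug/ml. With only the main transcript of each gene, it was 0.15, 0.17 and 0.20, and the fatty acid median was then -0.03, -0.15 and -0.08. The part of length and of transcript makeup in the difference was not otherwise tested.

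Sterol levels were also uneven among libraries that share a number. The sterol arm's mean was highest in library 3 of every group, at 0.08, -0.13, -0.22 and -0.21 against -0.01 or less in control and -0.26 or less in the DHA groups for the others. Of the 18 sterol genes, 14, 11, 14 and 11 were highest in library 3 in control and at 60, 120 and 240 ug/ml. Among all genes, 31%, 36.8%, 37.2% and 29.2% were highest in library 3 of these groups. In all 4 groups at once, 8 of the 18 sterol genes were highest in library 3, and the share of all genes for that was not computed.

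Of the early mevalonate pathway genes ACAT2, HMGCS1, MVK, PMVK and MVD, 0 were called at 60 ug/ml, 3 (ACAT2, MVK, PMVK) were called lower at 120 ug/ml and 2 (ACAT2, PMVK) at 240 ug/ml, on the deposited scaling. ACAT2, which joins acetyl-CoA units at the entry of the pathway, was 67.3, 71.1 and 90.0 in control. It was 45.7, 46.9 and 61.3 at 60, 45.4, 41.6 and 57.5 at 120, and 50.6, 33.9 and 56.8 at 240 ug/ml. All 9 DHA libraries were below all control libraries, and the log2 fold change at 240 ug/ml was -0.70 (SE 0.19, limma adjusted p = 0.0126). Without control library 3 that call was lost, as it was with equal library totals, and the call at 120 ug/ml was lost without control library 3 or 120 ug/ml library 1 or 2. PMVK, the kinase after MVK, was 57.7, 55.6 and 50.8 in control, and 60 ug/ml overlapped it with 57.6, 62.1 and 59.5. It was 42.9, 46.5 and 48.4 at 120 and 49.1, 40.1 and 44.5 at 240 ug/ml, below all control libraries. It fell by 0.29 (log2) at 240 ug/ml, and its position relative to control turned to 0.13 above, not called, with equal library totals. Its calls were lost without control library 1 or 2, without 120 ug/ml library 1 or 2 for that dose, and without 240 ug/ml library 2 for the highest. Subtracting the trend on GC (-0.24 and -0.21) or on length (-0.07 and -0.09) ended both calls, quantile normalization ended that at 120 ug/ml, and the GC trend ended that between 240 and 60 ug/ml. MVK, mevalonate kinase, was 16.2, 15.1 and 17.3 in control, 17.3, 15.5 and 16.1 at 60, 11.5, 14 and 12.8 at 120, and 11.9, 15.1 and 13.8 at 240 ug/ml. It was called lower only at 120 ug/ml, where the call was lost without control library 1 or 3 or 120 ug/ml library 1 or 3, where subtracting the length trend also ended it, and where its sign turned (0.02) with equal totals or the main transcript alone.

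The isoprenoid and squalene enzymes followed. FDPS, which makes farnesyl diphosphate, had the highest control level of the 32 genes on this length-scaled signal. It was 218.6, 238 and 244.7 in control, 186.7, 181.4 and 205.7 at 60, 156.6, 153.6 and 180.3 at 120, and 182.1, 143.1 and 169 at 240 ug/ml. Every DHA library was below every control library, and the log2 fold change at 240 ug/ml was -0.51 (SE 0.10, limma adjusted p = 0.00208). Equal totals left it at -0.08 and its main transcript alone at -0.35, neither called. FDFT1, squalene synthase, was 10.3, 12.3 and 7.7 in control, 7.5, 8.1 and 8.0 at 60, 5.4, 7.6 and 6.1 at 120, and 5.6, 8.6 and 6.9 at 240 ug/ml. The control and 240 ug/ml libraries overlap, and its log2 fold change there was -0.46 (SE 0.17, limma adjusted p = 0.0496). That call was lost under 10 of 17 alternatives, among them leaving out control library 1 or 2 or 240 ug/ml library 1 or 3, and the call at 120 ug/ml was lost without control library 1 or 2 or 120 ug/ml library 1 or 3. IDI1, which isomerizes isopentenyl diphosphate, was 16.5, 17.1 and 17.3 in control, and the 60 ug/ml libraries lay below that with 13.1, 13.4 and 14.5. It was 13.0, 15.7 and 16.8 at 120 and 16.2, 16.2 and 17.5 at 240 ug/ml, both overlapping control. Its call at 60 ug/ml was lost under 12 of 17 alternatives, including each omission of a control library and of 60 ug/ml library 1 or 2.

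TM7SF2, a sterol C14 reductase of the steps after lanosterol (chr11:65111845-65116384, plus strand, GENCODE 29), fell the farthest of the 32 genes. It was 16.7, 19.9 and 15.1 in control, 12.8, 14.6 and 9.1 at 60, 7.1, 7.3 and 6.3 at 120, and 6.3, 5.1 and 4.1 at 240 ug/ml. No DHA library reached a control library, and no library at 240 ug/ml reached one at 60 ug/ml. The log2 fold change was -0.48 at 60 ug/ml, where it was not called (limma adjusted p = 0.0713). It was -1.20 at 120 (SE 0.17, limma adjusted p = 3.49e-04) and -1.57 at 240 ug/ml (SE 0.17, limma adjusted p = 4.97e-05), a fold of 0.337 on the log2(value + 1) scale. Between 240 and 60 ug/ml it fell by 1.09 (limma adjusted p = 0.00273). Of all genes, 5.19% were called lower at 240 ug/ml with a log2 change of 1 or more. Its exons overlap those of VPS51 on the same strand, so reads could be shared between them. VPS51 was itself called lower at 120 ug/ml, with a log2 fold change of -0.28 (limma adjusted p = 0.0417), and between 240 and 60 ug/ml, by -0.37 (limma adjusted p = 0.0192). It was 44.0 ± 2.37 in control and 37.9 ± 3.01 at 240 ug/ml, not called there.

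EBP, the sterol isomerase of the same stretch, was 154.2, 161.2 and 181.1 in control, 151.7, 144.7 and 158.1 at 60, 116.9, 120.7 and 142.6 at 120, and 132.4, 95.1 and 129 at 240 ug/ml. Control and 60 ug/ml overlap, whereas the higher doses lay below all control libraries. Its log2 fold change at 240 ug/ml was -0.49 (SE 0.13, limma adjusted p = 0.00863), a call lost only with equal library totals, whereas the call at 120 ug/ml was lost under 9 of 17 alternatives, including without control library 2 or 3 or 120 ug/ml library 1 or 2. DHCR7 was 58.2, 57.6 and 71.2 in control, 60.7, 57.5 and 60.2 at 60, 51.5, 49.7 and 56.2 at 120, and 50.2, 48.8 and 55.6 at 240 ug/ml. It fell by 0.27 (log2) at 240 ug/ml, a call lost without control library 3 or 240 ug/ml library 1 or 2, with quantile normalization, with no filter or with the GC trend subtracted, and with equal totals it stood 0.16 above control, not called. SC5D, the sterol C5 desaturase, was 16.2, 17.9 and 19.0 in control, 12.1, 12.5 and 14 at 60, 13.0, 12.2 and 16.1 at 120, and 14.2, 14.7 and 17.8 at 240 ug/ml. It was called lower at 60 and 120 ug/ml, by 0.43 and 0.35 (log2), and overlapped control at 240 ug/ml. Both calls were lost without control library 2 or 3, without library 1 or 2 of the dose itself, with no filter or with equal totals, and also with the GC trend subtracted at 60 and the length trend at 120 ug/ml.

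Several sterol genes were lowest at the lowest dose. HMGCS1, IDI1, CYP51A1, MSMO1 and SC5D had their lowest group mean at 60 ug/ml, as did INSIG1 and STARD4. MVK, FDPS, FDFT1, SQLE, NSDHL and HSD17B7 were lowest at 120 ug/ml, ACAT2, PMVK, MVD, TM7SF2, EBP and DHCR7 at 240 ug/ml, and LSS in control. Neighbouring doses differed little. From 60 to 120 ug/ml PMVK alone of the 32 genes was called (lower, limma adjusted p = 0.0491), against 1.61% of all genes called lower there, and from 120 to 240 ug/ml 0 of the 32 were called. In that last step limma called 0 of all genes, 1331 genes (7.93%) had an unadjusted p below 0.05, 0 of them members, and no other tool was run.

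CYP51A1, the lanosterol demethylase, rose between 60 and 240 ug/ml. It was 33.1, 33.3 and 40 in control, 28.5, 25.8 and 36.8 at 60, 34.2, 30.7 and 39.1 at 120, and 38.1, 41.0 and 47.0 at 240 ug/ml. The libraries at 240 ug/ml lay above those at 60 ug/ml without overlap but overlapped control, and the difference between these doses was 0.47 (log2, limma adjusted p = 0.0301). That call was lost without 60 ug/ml library 1 or 2 or 240 ug/ml library 2 or 3, with no filter or with the GC trend subtracted. Between these doses 2 members were called higher, CYP51A1 and FASN, and 2 lower, PMVK and TM7SF2, against 11.7% and 13.1% of all genes. The 2 called higher became 0 without 60 ug/ml library 1 or 2 or 240 ug/ml library 2 or 3, and 5 without 60 ug/ml library 3, and the 2 called lower became 3 without 60 ug/ml library 3 or 240 ug/ml library 1.

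The other 7 sterol genes, HMGCS1, MVD, SQLE, LSS, MSMO1, NSDHL and HSD17B7, were called at no dose against control. HMGCS1, which makes the precursor of mevalonate, was 64.9 ± 12.5 in control and 47.1 ± 7.54 at 60 ug/ml (limma adjusted p = 0.0643). MSMO1 was 64.7 ± 9.76 and 47.6 ± 9.33 (limma adjusted p = 0.0666). LSS, lanosterol synthase, had a log2 fold change between 0.07 and 0.18 at the 3 doses. MVD, the mevalonate diphosphate decarboxylase, ranged from -0.10 to 0.07.

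**Figure D3:**
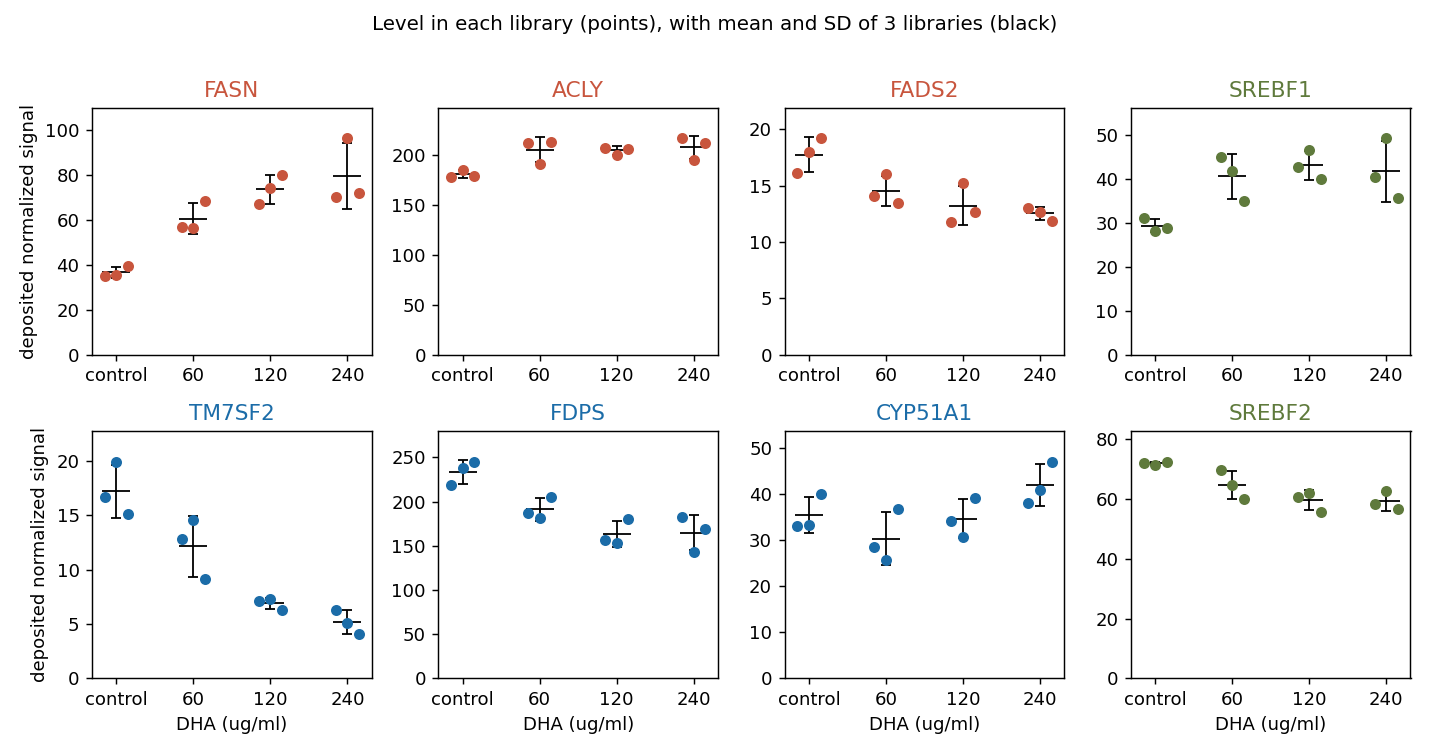
Deposited normalized signal (vertical axes, starting at 0) of FASN, ACLY, FADS2, SREBF1, TM7SF2, FDPS, CYP51A1 and SREBF2 in each library by DHA dose; points are libraries, black bars the mean and SD of 3. FASN climbs from 36.7 to 79.6 and TM7SF2 drops from 17.2 to 5.17 between control and 240 ug/ml, and CYP51A1 dips at 60 ug/ml.

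In the fatty acid arm the synthase itself moved most. FASN, which builds palmitate from acetyl-CoA and malonyl-CoA (chr17:82078333-82098332, minus strand, GENCODE 29), was 35.1, 35.5 and 39.4 in control. It was 56.7, 56.6 and 68.4 at 60, 67.1, 74.1 and 79.9 at 120, and 70.4, 96.3 and 72 at 240 ug/ml. All DHA libraries were above all control libraries, and the lowest at 240 ug/ml was above the highest at 60 ug/ml. Its log2 fold change was 0.71 at 60 (SE 0.12, limma adjusted p = 0.00341), 0.99 at 120 (SE 0.12, limma adjusted p = 1.66e-04) and 1.08 at 240 ug/ml (SE 0.12, limma adjusted p = 6.53e-05), a fold of 2.12. Of all genes, 2.10% were called higher at 240 ug/ml with a log2 change of 1 or more. The rise of 0.38 from 60 to 240 ug/ml (limma adjusted p = 0.0448) was lost without 60 ug/ml library 1 or 2 or 240 ug/ml library 2 or 3, with no filter or with the length trend subtracted. No annotated gene overlaps FASN's exons, and 1 coding transcript held 80.92% of its signal.

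ACLY and ACACA, which supply the synthase, were called higher by smaller amounts, and ACSS2 was not called. ACLY was 177.8, 185.2 and 179.2 in control, 212.4, 190.8 and 212.8 at 60, 207.5, 199.9 and 206.1 at 120, and 216.6, 194.6 and 212.2 at 240 ug/ml. Each DHA library was above each control library, but ACLY was called only at 240 ug/ml, where it was 0.20 above control (log2, SE 0.07, limma adjusted p = 0.0411). ACACA, which makes malonyl-CoA, was 17.9, 17.1 and 16.6 in control, 17.8, 16 and 20.2 at 60, 21.5, 20.9 and 20.6 at 120, and 20.2, 19.9 and 20.9 at 240 ug/ml. It overlapped control at 60 ug/ml and rose by 0.27 at 120 and by 0.23 at 240 ug/ml (log2 at 240, SE 0.08, limma adjusted p = 0.0407). The calls at 240 ug/ml were lost without any 1 control library for both genes, without 240 ug/ml library 1 or 3 for ACLY and without any 1 of the 3 for ACACA. That of ACACA at 120 ug/ml was lost without control library 2 or 3 or 120 ug/ml library 1 or 2. Subtracting the trend on length also ended these calls, at 0.11 for ACLY and 0.04 for ACACA at 240 ug/ml. ACSS2, which makes acetyl-CoA from acetate, was 48.3 ± 8.51 in control and 39.4 ± 4.05 at 240 ug/ml and was called at no dose.

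Elongation and desaturation genes did not share a direction. FADS2, the desaturase that opens polyunsaturated fatty acid synthesis, was 16.1, 18 and 19.2 in control, 14.1, 16 and 13.5 at 60, 11.8, 15.2 and 12.7 at 120, and 13.0, 12.7 and 11.9 at 240 ug/ml. All DHA libraries lay below control, and its log2 fold change at 240 ug/ml was -0.47 (SE 0.10, limma adjusted p = 0.00378). With equal totals it was -0.06 and not called. ELOVL5, a polyunsaturated fatty acid elongase, was 171.4, 170.1 and 173.5 in control, 134.7, 139.4 and 153.1 at 60, 144.1, 136.4 and 152.1 at 120, and 149.3, 144.6 and 162.4 at 240 ug/ml. It was below control in all 9 DHA libraries and was called at 60 and 120 ug/ml, calls lost without any 1 control library or without library 1 or 2 of the dose. The GC trend or the main transcript alone also ended the call at 60 ug/ml, and quantile normalization that at 120 ug/ml. Equal totals put it 0.12 above control at 120 and 0.25 above at 240 ug/ml, not called. ELOVL6, which extends palmitate, was 5.0, 4.5 and 4.5 in control, 6.7, 6.5 and 4.8 at 60, 8.3, 5.6 and 6.9 at 120, and 5.9, 5.9 and 6.6 at 240 ug/ml. It was called higher at 120 ug/ml only, a call lost without control library 2 or 3 or 120 ug/ml library 1 or 3. On its main transcript alone the direction at 120 ug/ml turned to -0.34. SCD, which makes monounsaturated fatty acids, was 166 ± 12.4 in control and 204 ± 16.3 at 240 ug/ml (limma adjusted p = 0.0529), and FADS1, the delta-5 desaturase, was 52.2 ± 2.82 and 49.2 ± 3.87.

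On the deposited scaling SREBF1 was called higher and SREBF2 lower, as sums of all their transcripts, which also enter their ratio below. Coding transcripts held 49.28% of the SREBF1 signal and 93.78% of that of SREBF2. SREBF1 was 31.1, 28.2 and 28.9 in control, 45.1, 41.9 and 35.1 at 60, 42.8, 46.6 and 40 at 120, and 40.4, 49.3 and 35.7 at 240 ug/ml. Every DHA library exceeded every control library. The log2 fold change was 0.45 at 60 (limma adjusted p = 0.024), 0.54 at 120 (limma adjusted p = 0.00506) and 0.48 at 240 ug/ml (SE 0.12, limma adjusted p = 0.00741). The call at 60 ug/ml was lost without control library 2 or 3 or 60 ug/ml library 1 or 2, or with no filter. SREBF2 was 72, 71.6 and 72.4 in control, 69.7, 64.6 and 60.2 at 60, 60.8, 62.2 and 55.8 at 120, and 58.4, 62.7 and 56.7 at 240 ug/ml. All 9 DHA libraries lay below control, and the log2 fold change was -0.27 at 120 and -0.28 at 240 ug/ml (SE 0.07, limma adjusted p = 0.00956). Without 120 ug/ml library 3 the call at 120 ug/ml was lost, and with equal totals SREBF2 stood 0.09 and 0.15 above control at these doses, not called. Quantile normalization also ended both calls, at -0.19 and -0.21. The ratio of SREBF1 to SREBF2, which the scaling leaves alone, was 0.408 ± 0.0206 in control, 0.626 ± 0.0374 at 60, 0.723 ± 0.0233 at 120 and 0.703 ± 0.0789 at 240 ug/ml, with the lowest DHA library at 0.583 and the highest control library at 0.432. SCAP, INSIG1 and STARD4, a sterol transfer protein, were called at no dose. INSIG1 was 46.4 ± 7.04 in control, 37.0 ± 4.67 at 60 and 45.2 ± 4.68 at 240 ug/ml.

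**Figure D4:**
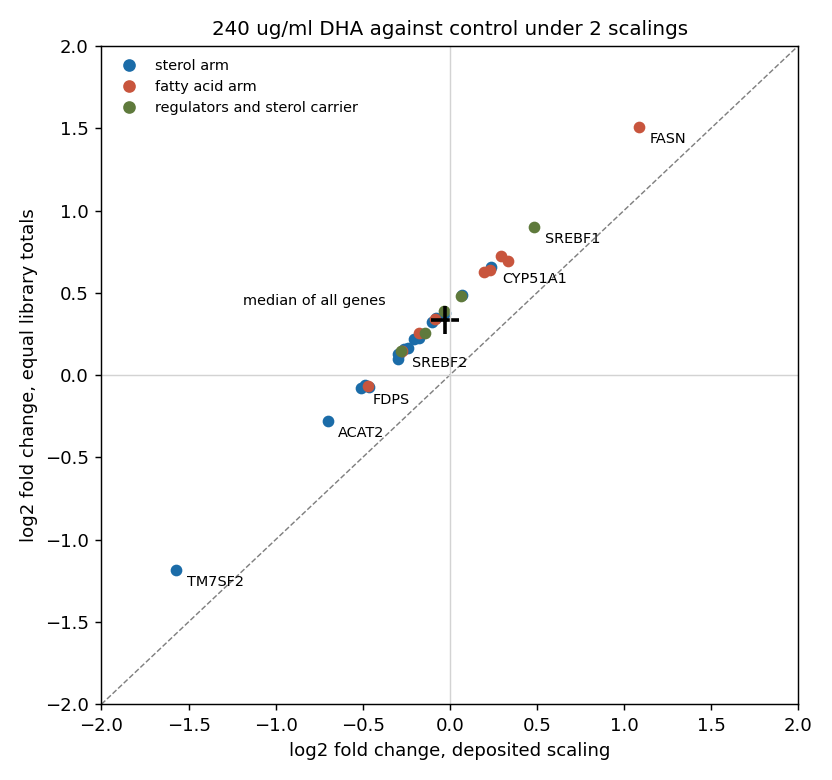
The log2 fold change of each of the 32 genes at 240 ug/ml against control with the deposited scaling (horizontal) and with equal library totals (vertical); the cross is the median of all genes, at -0.03 and 0.34, and the dashed line marks equal values. All points are shifted upward by a like amount, so FASN stays above the median of all genes and TM7SF2 below it on either axis.

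With equal library totals, 6, 9 and 13 members were called higher and 0, 1 and 1 lower at 60, 120 and 240 ug/ml. Of all genes, 16.7%, 36.5% and 43.3% were then called higher and 3.89%, 8.13% and 9.02% lower, so these counts of members stood near or below the background. TM7SF2 was the lower one at both higher doses. Of the calls over all genes at 240 ug/ml, 45.6% were higher with the deposited scaling (3306 higher, 3938 lower) and 82.8% with equal totals (7227 higher, 1504 lower). Relative to the median of all genes, the sterol arm at 240 ug/ml was lower in both, with an arm median of -0.25 against -0.03 and of 0.16 against 0.34. The fatty acid arm was higher in both, with 0.20 against -0.03 and 0.63 against 0.34.

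Within genes, transcripts did not always move alike, and these values are described without a test. Coding transcripts held 49.28% of the SREBF1 signal. SREBF1-201, a coding transcript, was 6.93 ± 0.586 in control, 10.8 ± 0.751 at 60 and 8.57 ± 1.15 at 240 ug/ml. The retained-intron transcript SREBF1-216 was 4.3 ± 1.2 in control and 11.7 ± 5.48 at 240 ug/ml, and the coding SREBF1-202 was 6.77 ± 1.01 and 4.13 ± 1.05. On SREBF1-201 alone the log2 fold change at 240 ug/ml was 0.27 (limma adjusted p = 0.0539). The sum of the coding transcripts was not tested, so the call on the SREBF1 gene at 240 ug/ml does not show a rise of its coding RNA. ELOVL6-201 was 2.67 ± 0.306 in control and 1.6 ± 0.3 at 60 ug/ml, whereas ELOVL6-202 was 0.933 ± 0.153 and 2.30 ± 0.361. ACLY-202 was 60.0 ± 1.02 in control and 41.9 ± 5.50 at 240 ug/ml, whereas ACLY-201 was 57.7 ± 7.71 and 78.8 ± 7.31. Shares between transcripts of 1 gene depend on how reads were assigned, which the sources used here do not describe.

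Exons of 14 members overlap a gene on the opposite strand and those of 4 a gene on the same strand, and 5 members have pseudogenes named after them, 8 of them for FDPS. The strand setting of the quantification is not given, so reads of such neighbours cannot be told apart with certainty. ACAT2 overlaps TCP1 and SOD2, MVK overlaps MMAB, and FADS1 and FADS2 overlap each other. FADS2 also overlaps FEN1 on the same strand, and SREBF1 overlaps RAI1 on the opposite strand. At 240 ug/ml the log2 fold change of TCP1 was 0.37 (not called), that of SOD2 -0.75 and that of MMAB -0.71 (both called). That of FEN1 was 0.34 (called) and that of RAI1 0.20 (not called). RAI1 lay above all control libraries at 60 and 120 ug/ml but was called at no dose.

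Other genes of these pathways were counted in 5 lists chosen by pathway. Of 13 sterol handling genes, 5 were called higher and 5 lower at 240 ug/ml, beside 19.7% and 23.5% of all genes. Among those called lower, NPC2, the lysosomal cholesterol carrier, fell by 1.69 and ERG28, a scaffold of sterol enzymes, fell by 1.05 (log2). Of 4 oxysterol receptor genes and targets tested, ABCA1, a cholesterol exporter, rose by 0.94, NR1H3, a receptor, fell by 1.07 and MYLIP, an ubiquitin ligase, fell by 0.66. MYLIP lay near the filter on low values, at 2.07 ± 0.153 in control and 0.933 ± 0.0577 at 240 ug/ml. ABCG1 did not pass the filter.

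In the isoprenoid branch 3 of 10 genes were called higher and 2 lower at 240 ug/ml, the latter near the 23.5% of all genes. GGPS1, which makes geranylgeranyl diphosphate, fell by 0.51, and PDSS1, of the coenzyme Q side chain, and NUS1, of dolichol synthesis, rose by 0.57 and 0.40. Of 18 genes of fatty acid supply, elongation and activation, 4 were called higher, near the 19.7% of all genes, and 6 lower. Among these 10 were SCD5, a stearoyl-CoA desaturase, which fell by 1.15, ELOVL1, an elongase of very long chains, which fell by 0.66, and HSD17B12, of the elongation cycle, which rose by 0.55. In the glycerolipid and lipid droplet list 5 of 9 were called higher and 2 lower, the latter again near the background. GPAM, the first acyltransferase of triglyceride synthesis, rose by 0.62, LPIN1, a phosphatidate phosphatase, rose by 0.59 and PLIN3, a droplet coat protein, fell by 0.52. The medians of these 5 lists at 240 ug/ml, in the order given, were 0.00, -0.40, 0.06, 0.02 and 0.27, beside -0.03 for all genes.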

How the data were processed

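Per the submitters' sample titles, the 12 libraries fall into 4 groups of 3. The deposited table holds 1 normalized signal value, to 1 decimal, for each of 267165 Ensembl transcripts in each library. The build is GRCh38.p14 per the submitters' processing notes, and the sources used here name no aligner, quantifier, strand setting or annotation. The totals have a geometric mean of 999925, so the deposited signal was read as TPM divided by a size factor, a reading that rests on those totals. It keeps no read depth, so depth is unknown and no counting interval is given.

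Values were summed per gene for the 202305 transcripts (75.72%) found in GENCODE 29, which carried 93.81% to 94.68% of each total. The planned count test could not be used. limma-trend (limma 3.58.1, R 4.3.3) was fitted to log2(value + 1), with 1 mean per group and no covariate, for the 16789 genes at 1 or more in at least 3 libraries. P-values are two-sided, Benjamini-Hochberg adjusted over those genes, and called at 0.05. Fold changes on this scale are understated for low genes. In a simulation of 16789 genes for the 240 ug/ml comparison with control, 52% of log2 changes of 0.5, 92% of 1 and 100% of 2 and 3 were recovered, with 11 false calls. Changes were placed only in a small sample of genes above a level cutoff, in data otherwise without change and with independent normal noise. These rates may therefore not hold for low genes, or for the real comparison, where far more genes were called. The members, arms and lists were chosen with earlier results of these data known. Library values are given for members called against control at any dose, standard errors for up to 5 called members per arm with the largest change at 240 ug/ml, and other pathway genes were named from the 3 largest called changes of each list. Some genes of these lists are not reported here by name. Alternatives were other scalings, pseudocounts and filters, the main transcript alone, GC and length trends subtracted, a replicate block, and each library left out.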

Additional observations from a re-analysis of the deposited data

How the results depend on the processing

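The signal keeps no depth, so how precision falls at low levels is unknown, and genes such as ELOVL6 and FDFT1 rest on values near 5 and 10. With 3 libraries a group, small changes are found unreliably. The labels do not say whether a replicate number marks a shared culture or day, and the main fit did not pair by it. Correlations of deviations between same-numbered libraries ran from -0.0247 to 0.236, with 6 of 18 pairs over 0.1. Between other-numbered libraries they ran from -0.2101 to 0.1114, with 1 of 36 pairs over 0.1. Of 12 libraries, 8 correlated best with their own number. With the replicate block, members called lower numbered 12 at 60, 17 at 120 and 6 between 240 and 60 ug/ml, and 6 were called higher in the last. Of all genes, the block called 12.7%, 23.2% and 16.1% lower in these comparisons and 14.5% higher in the last. With the block and the GC trend subtracted, 10 were called lower at 60 ug/ml, and the fatty acid median was 0.23 at 120 and 0.27 at 240 ug/ml.

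Equal library totals gave 0, 1, 1 and 1 members called lower and 6, 9, 13 and 10 called higher at 60, 120 and 240 ug/ml against control and at 240 against 60 ug/ml. The sterol medians were then -0.044, 0.011, 0.16 and 0.11, and the fatty acid medians 0.30, 0.54, 0.63 and 0.24. At 120 ug/ml this scaling reversed MVK (0.022), PMVK (0.12), ELOVL5 (0.12) and SREBF2 (0.094). At 240 ug/ml it reversed PMVK (0.13), IDI1 (0.38), SQLE (0.34), DHCR7 (0.16), ELOVL5 (0.25), FADS1 (0.34) and SREBF2 (0.15). The shift of all genes together comes from the scaling itself. Quantile normalization gave fatty acid medians of 0.17 at 60, 0.29 at 120 and 0.12 between 240 and 60 ug/ml.

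With the main transcript alone the fatty acid medians were -0.029, -0.15, -0.082 and 0.14 in the 4 comparisons and the differences between the arms 0.15, 0.17, 0.20 and 0.26, and 4 members were called lower between 240 and 60 ug/ml. ELOVL6 reversed at 60 (-0.50) and 120 ug/ml (-0.34), MVK at 120 ug/ml (0.015) and SREBF1 between 240 and 60 ug/ml (-0.30). With the length trend subtracted, the sterol medians were -0.22 at 120 and -0.11 at 240 ug/ml, the fatty acid medians 0.13 and 0.038, and the differences 0.35 and 0.15. That setting called 2 members higher at 240 ug/ml and 4 lower between 240 and 60 ug/ml. With the GC trend subtracted, the fatty acid median was 0.23 at 120 and 0.27 at 240 ug/ml, and 1 member was called in each direction between 240 and 60 ug/ml. With no filter, 1 member was called in each direction at 60, 7 lower at 120, 2 higher at 240 and 0 higher between 240 and 60 ug/ml. A minimum of 5 in 3 libraries called 7 lower at 60 ug/ml. The cause of these changes was not tested.

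Leaving out each library in turn gave 0 to 6 members called lower and 1 to 3 higher at 60, 5 to 11 and 2 to 4 at 120, 7 to 8 and 2 to 3 at 240, and 2 to 3 and 0 to 5 between 240 and 60 ug/ml. The sterol median ran from -0.31 to -0.18, from -0.36 to -0.27, from -0.30 to -0.17 and from -0.17 to -0.02 in these comparisons. The fatty acid median ran from -0.019 to 0.13, 0.17 to 0.19, 0.17 to 0.24 and 0.00 to 0.08, and the difference between the arms from 0.21 to 0.36, 0.45 to 0.54, 0.36 to 0.50 and 0.07 to 0.22.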
